A study of Rattus norvegicus with 6 samples.

Results

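A set of 8 genes of microglia, antigen presentation and inflammation (Aif1, Itgam, Cd68, Cd74, RT1-Da, B2m, C3 and Il1b) was followed in brain tissue of rats with experimental autoimmune prostatitis (EAP) and of rats labelled normal. They were taken by Ensembl identifier from a table of 22250 genes, and all 8 were found in it. EAP is a rat model of chronic prostatitis, made by injecting rat prostate protein together with Freund's adjuvant. The study looked at male sexual dysfunction in this model and sequenced poly(A)-enriched brain RNA in 3 EAP and 3 normal libraries. The sources used here do not give strain, age, brain region, the time after injection, the handling of the normal rats, or whether each library came from 1 animal. P-values therefore measure the spread between these libraries, which may be technical.

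Microglia are the resident macrophages of the brain. Aif1, Itgam and Cd68 are used to mark them, but other macrophages and monocytes make these proteins too. Class II molecules present peptides to helper T cells, and in the brain they are found mainly on microglia, border macrophages and infiltrating immune cells. Class I molecules present peptides to cytotoxic T cells and need beta-2-microglobulin as their light chain. C3 is the central protein of complement, made in brain by astrocytes and microglia among others, and Il1b encodes interleukin-1 beta, a cytokine that myeloid cells release early in inflammation. In bulk tissue, fewer cells of a type and less RNA per cell cannot be told apart.

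No difference between EAP and normal brain passed the adjusted threshold for any of these genes. Of the 8, 7 had enough counts to be tested, and 0 of these passed an adjusted p of 0.05 (edgeR quasi-likelihood test, adjusted p 0.426 to 0.86), where 0.0304% of all 13155 genes tested did. DESeq2 and limma voom also called 0 of the 7, and they called 1.31% and 0.0076% of the genes they tested. At an unadjusted p under 0.05, edgeR gave 1 of the 7 (C3), limma voom gave 1 and DESeq2 gave 0. The shares over all genes tested were 11.1%, 10.8% and 10.6%. The fitted change was above 0 for 6 of the 7, as it was for 51.7% of all genes, and below 0 for B2m. The median log2 fold change was 0.52 over the 7 and 0.01 over all genes tested. Without EAP replicate 2 the median over the 7 was 0.06 and 4 of them lay above 0. The median was 0.78 without normal replicate 1 and 0.32 without normal replicate 2, with 6 of the 7 above 0 in each fit. Il1b failed the filter on low counts and is described by its counts.

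**Figure D1:**
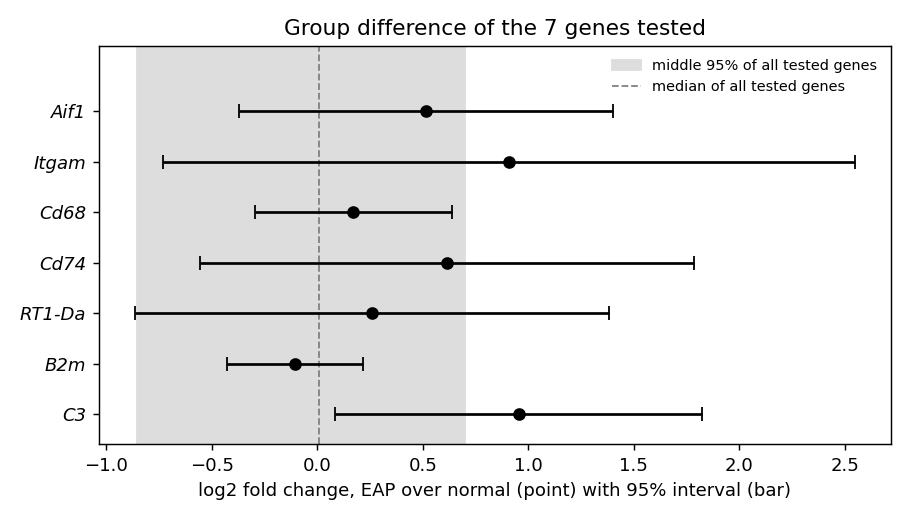
The x axis gives the log2 fold change, EAP over normal, of the 7 genes tested, and the y axis names the genes. Points are edgeR estimates, bars are 95% intervals, the grey band spans the middle 95% of all tested genes and the dashed line is their median. The interval of C3 runs from 0.09 to 1.82, and those of the other 6 genes include 0.

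Libraries held 12534210 to 14669760 counts. Levels below are CPM, counts relative to the library total, adjusted with TMM factors (0.937 to 1.03), and 1 count was worth 0.0682 to 0.0782 CPM. On the first principal component of all tested genes, EAP replicate 1 (-6.59) was the EAP library closest to the normal ones, and normal replicate 2 (9.38) the normal library closest to EAP. Results were therefore also computed without these 2 libraries. Leaving both out called 0 of the 7 genes and 2.52% of all genes tested in that fit. The 2 libraries were picked from these same data for lying nearest the other group, so that share is not independent of the choice. Symbols could not be matched to the other identifiers of the table, so markers of other brain cells and further genes of these pathways are not used here, and a part of changed tissue make-up in the results was not tested.

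The promoters of Cd74, RT1-Da and B2m are shown because the first pair moved together from library to library and the third did not. Each is the RefSeq window of 300 bases on build GRCr8, from 250 before to 50 after the annotated start, read 5′ to 3′ on the gene's strand. Capitals mark TAGCAAC, the core of the X box that the RFX complex binds at class II genes, and CCAAT, a site of the factor NF-Y, which reads ATTGG where it lies on the other strand. The windows are chr18:56526956-56527255 (plus strand) for Cd74, chr20:4515165-4515464 (plus strand) for RT1-Da and chr3:129549080-129549379 (plus strand) for B2m.
Cd74: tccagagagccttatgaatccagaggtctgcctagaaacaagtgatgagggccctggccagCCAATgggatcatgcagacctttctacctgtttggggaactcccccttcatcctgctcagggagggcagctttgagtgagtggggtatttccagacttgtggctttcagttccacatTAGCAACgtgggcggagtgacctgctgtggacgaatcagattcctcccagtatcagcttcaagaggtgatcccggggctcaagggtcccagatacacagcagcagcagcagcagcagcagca
RT1-Da: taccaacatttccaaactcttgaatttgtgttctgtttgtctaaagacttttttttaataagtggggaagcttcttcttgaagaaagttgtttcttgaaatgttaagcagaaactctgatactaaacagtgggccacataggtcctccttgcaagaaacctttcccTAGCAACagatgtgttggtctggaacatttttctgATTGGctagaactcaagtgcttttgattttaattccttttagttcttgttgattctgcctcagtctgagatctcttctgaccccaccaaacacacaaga
B2m: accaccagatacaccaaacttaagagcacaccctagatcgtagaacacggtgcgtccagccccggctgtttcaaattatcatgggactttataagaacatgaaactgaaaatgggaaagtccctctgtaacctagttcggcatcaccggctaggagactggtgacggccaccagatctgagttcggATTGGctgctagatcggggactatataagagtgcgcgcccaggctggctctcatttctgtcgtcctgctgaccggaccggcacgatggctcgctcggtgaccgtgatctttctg
Both strands were searched, and the motifs were chosen after the windows had been read. TAGCAAC begins at base 179 of the Cd74 window and base 167 of the RT1-Da window, and it is in 3.58% of all 33469 promoter windows. CCAAT is in all of the 3 windows shown and in 37.5% of all windows, and 1.42% of all windows hold both. In Cd74 the CCAAT match begins at base 62, on the plus strand and before TAGCAAC. In RT1-Da it begins at base 202, on the other strand and after TAGCAAC, so order and strand differ between the windows. A match is a description of letters and not evidence of a bound site. A search for exact letters misses variants, so a window without a match may still hold such a site. Whether these letters relate to the levels of the genes was not tested. Windows were found for 7 of the 8 genes, Aif1 being the one with no entry, and TAGCAAC was in none of the windows of Itgam, Cd68, B2m, C3 and Il1b.

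The microglia markers were higher on average in EAP, but the libraries of the groups overlapped for each of them. Aif1 (ENSRNOG00000000853) encodes the actin-bundling protein IBA1. EAP replicates 1, 2 and 3 stood at 2.97, 6.22 and 4.67 CPM for Aif1, and the normal replicates, in the same order, at 5.0, 2.21 and 2.52 CPM. EAP replicate 2 was highest and normal replicate 1 came next, so the level of Aif1 did not part the groups. EAP averaged 4.62 ± 1.63 CPM and normal 3.25 ± 1.53 CPM (SD, n = 3 per group). For Aif1 the log2 fold change was 0.52 (SE 0.39, edgeR adjusted p = 0.651). It ranged from 0.24 without EAP replicate 2 to 0.96 without normal replicate 1, and the latter fit gave an unadjusted edgeR p of 0.0353 and an adjusted p of 0.594.

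Itgam (ENSRNOG00000019728), the integrin alpha M chain (CD11b) of the complement receptor CR3, had the widest spread of the microglia markers. The counts of Itgam in EAP replicates 1, 2 and 3 were 17, 114 and 26, which are 1.33, 8.44 and 1.93 CPM. The normal replicates held 35, 19 and 31 counts, which are 2.74, 1.40 and 2.11 CPM. EAP replicate 2 alone was high: it lay 3.09-fold above the next library, and EAP replicate 1 was the lowest of all 6. The 95% Poisson interval of EAP replicate 2 (6.97 to 10.1 CPM) lay above that of each other library, the highest of which ended at 3.80 CPM. Its log2 fold change was 0.91 (SE 0.70, edgeR adjusted p = 0.662) with all libraries and -0.35 (SE 0.47) without EAP replicate 2. The direction of the mean difference thus came from 1 library.

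Cd68 (ENSRNOG00000037563), a lysosomal glycoprotein of macrophages, was the steadiest of the microglia markers. EAP replicates 1, 2 and 3 had 6.26, 8.37 and 7.35 CPM of Cd68, and normal replicates 1, 2 and 3 had 7.11, 6.42 and 6.0 CPM. EAP replicate 2 was again highest, yet the highest library was 1.34 times the lowest in EAP and 1.18 times in normal. Between the groups Cd68 had a log2 fold change of 0.17 (SE 0.21), with a 95% interval from -0.30 to 0.64. That interval reaches no further than a fold of 1.56 upward and 0.815 downward.

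Summed over Aif1, Itgam and Cd68, EAP replicates 1, 2 and 3 reached 10.6, 23.0 and 13.9 CPM, and normal replicates 1, 2 and 3 reached 14.8, 10.04 and 10.6 CPM. Apart from EAP replicate 2, the libraries of both groups lay within 10.04 to 14.8 CPM.

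**Figure D2:**
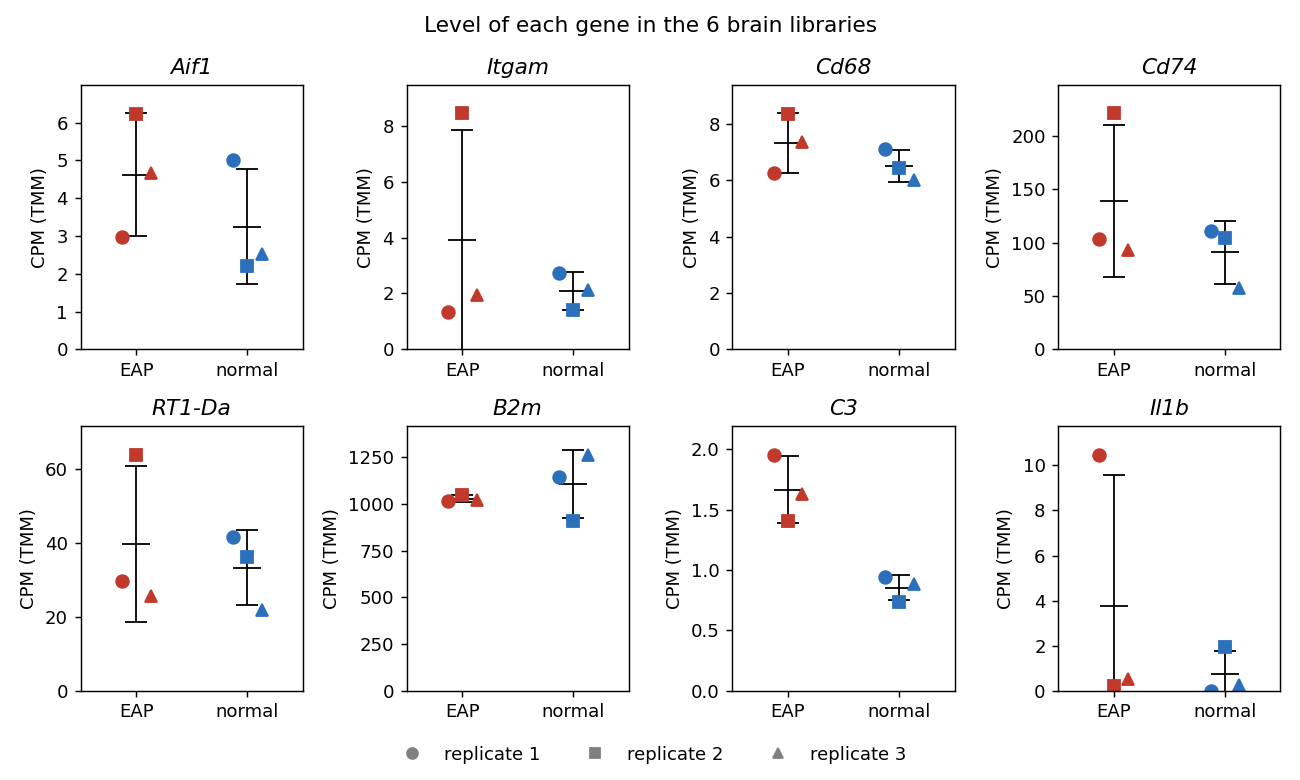
Each panel gives 1 gene, with its level in TMM-scaled CPM on a linear y axis from 0 and the groups on the x axis. Symbols stand for the replicates, and black bars for the group mean ± SD (n = 3), with the bar ended at 0 where it would run below it. EAP replicate 2, the red square, is the highest library for Aif1, Itgam, Cd68, Cd74 and RT1-Da. C3 is the gene whose groups do not overlap, as is so in either direction for 16.8% of all genes tested.

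The class II genes varied strongly between libraries of the same group. Cd74 (ENSRNOG00000018735) encodes the invariant chain, which occupies the class II groove until peptide loading. For Cd74, EAP replicates 1, 2 and 3 had 103, 221 and 92.9 CPM, and normal replicates 1, 2 and 3 had 110, 105 and 57.2 CPM. EAP replicate 2 was 2.0-fold above the next library and normal replicate 3 was the lowest, while the other 4 libraries of both groups lay between 92.9 and 110 CPM. EAP averaged 139 ± 71.2 CPM and normal 90.7 ± 29.2 CPM (SD, n = 3 per group). On the log2 scale Cd74 differed by 0.62 (SE 0.45, edgeR adjusted p = 0.661), and it was 0.11 without EAP replicate 2 and 0.37 without normal replicate 3.

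RT1-Da (ENSRNOG00000032844) encodes the alpha chain of a rat class II molecule, the counterpart of HLA-DRA. EAP replicates 1, 2 and 3 had 29.7, 63.8 and 25.5 CPM of RT1-Da, and normal replicates 1, 2 and 3 had 41.6, 36.2 and 21.9 CPM. Group means were 39.7 ± 21.0 CPM for EAP and 33.2 ± 10.2 CPM for normal (SD, n = 3 per group). The extremes were the same libraries as for Cd74, but here normal replicates 1 and 2 lay above EAP replicates 1 and 3. RT1-Da had a log2 fold change of 0.26 (SE 0.44, edgeR adjusted p = 0.86) and turned to -0.27 (SE 0.26) without EAP replicate 2. It was 0.03 without normal replicate 3. RT1 genes are polymorphic and have near-identical copies, and how the authors' counting split such reads is not stated in the labels, so this level is uncertain.

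The spread of the class II genes between libraries was larger than the trend for genes of like abundance. The biological coefficient of variation that edgeR estimated from the libraries within groups was 0.381 for Cd74 and 0.371 for RT1-Da, against 0.153 and 0.147 on the trend for genes of like abundance. The ratio of gene to trend was lower than that of Cd74 in 98.4% of all tested genes and lower than that of RT1-Da in 98.5%. For Itgam the coefficient was 0.566 against a trend of 0.301 (97.0% of genes lower). Aif1 was closer to its trend, at 0.328 against 0.283. Cd68 (0.183 against 0.240), B2m (0.175 against 0.208) and C3 (0.244 against 0.334) lay below theirs.

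The 2 class II genes had nearly the same pattern over the 6 libraries. Likeness was measured as the root-mean-square difference between centred log2 CPM values, among 12019 other genes. RT1-Da was the 5th closest gene to Cd74 (difference 0.19), and Cd74 was the 3rd closest to RT1-Da. Both genes spread widely between libraries, and few genes lie near such a gene: Cd68 ranked 573 from Cd74 at a difference of 0.44. The count ratio of Cd74 to RT1-Da also differed between the groups, as given below. The microglia markers were further off. Itgam had Aif1 at rank 23, RT1-Da at rank 32 and Cd74 at rank 44, but a gene with one very high library is near to few genes, and in the other direction Itgam ranked 5533 from Cd74 and 8103 from RT1-Da. Aif1 had Cd68 at rank 311 and Cd74 at rank 926. In the other direction Aif1 ranked 10142 from Cd68 and 526 from Cd74, so the closeness of Aif1 and Cd68 held from 1 side only. B2m ranked 8734 from Cd74.

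**Figure D3:**
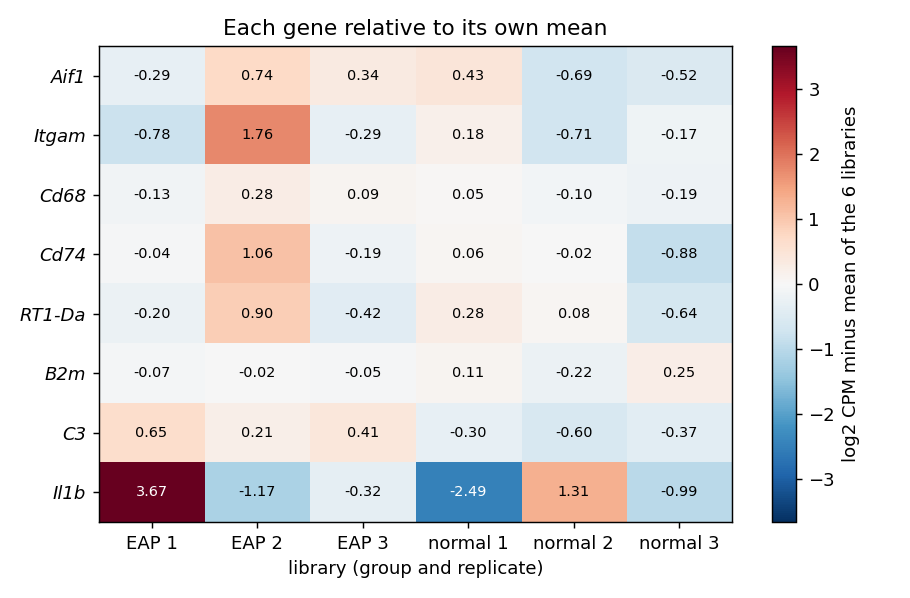
Rows are the 8 genes and columns the 6 libraries. Colours and printed values give log2 CPM (prior count 2) minus the gene's mean over the 6 libraries, with red above and blue below the mean. Cd74 and RT1-Da share their highest library (1.06 and 0.90 in EAP replicate 2) and their lowest (-0.88 and -0.64 in normal replicate 3), and Il1b has the widest range, from -2.49 to 3.67.

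EAP replicate 2 was the highest library for 5 of the 7 genes tested (Aif1, Itgam, Cd68, Cd74 and RT1-Da), where it was the highest for 16.5% of all genes tested. This count was made after the values had been seen. For B2m, C3 and Il1b it was not the highest: B2m stood at 1049 CPM there against 1013 and 1023 CPM in the other EAP libraries. Its total count, 13314793, lay within the range of the other libraries. The labels give nothing that sets this library apart, and whether it held more immune cells was not tested.

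The count of Cd74 per count of RT1-Da did not overlap between the groups, while the levels of both genes did. EAP replicates 1, 2 and 3 had ratios of 3.47, 3.46 and 3.64, and normal replicates 1, 2 and 3 had ratios of 2.66, 2.89 and 2.61. All EAP libraries lay above all normal libraries, although the level of both genes in EAP replicate 2 was more than that in any other library. EAP averaged 3.53 ± 0.0989 and normal 2.72 ± 0.149 (SD, n = 3 per group), a geometric mean 1.30-fold higher in EAP. The exact two-sided permutation p was 0.1, the smallest that 3 libraries against 3 can give. The ratio was examined after the counts had been seen, as 1 of 21 pairs among the 7 genes with counts in every library. Over these 21 pairs the Benjamini-Hochberg adjusted permutation p was 0.7, and 3 pairs did not overlap between groups, the other 2 being C3 with Cd68 and C3 with B2m. The level of C3 alone also did not overlap. Of single genes tested, 16.8% did not overlap in either direction, and no such share was computed for ratios of gene pairs. A ratio of counts from 1 library does not depend on library scaling. With EAP replicate 1 and normal replicate 2 both left out, the difference in the log2 ratio was 0.43, against 0.38 with all libraries. Normal replicate 2 had the highest normal ratio, so leaving it out had to lower the normal mean, and the 0.43 adds no support. A ratio shows unequal levels of Cd74 and RT1-Da and not which of them differed, and the uncertain assignment of RT1 reads touches it.

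**Figure D4:**
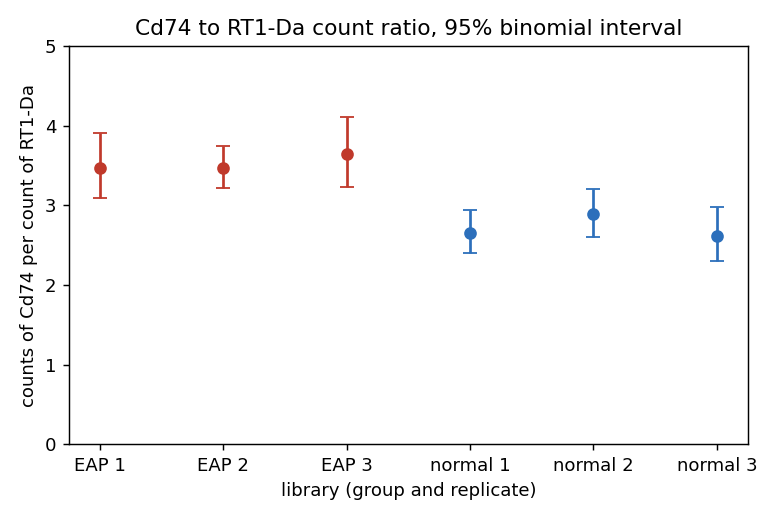
The y axis gives the count of Cd74 divided by the count of RT1-Da in each library on a linear scale from 0, and the x axis gives the 6 libraries, with EAP in red and normal in blue. Bars are 95% exact binomial (Clopper-Pearson) intervals, which cover counting error only. The EAP ratios lie between 3.46 and 3.64 and the normal ratios between 2.61 and 2.89, and the interval of normal replicate 2 (up to 3.21) reaches into that of EAP replicate 1 (from 3.10).

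B2m (ENSRNOG00000017123), the light chain of class I molecules, did not follow the class II genes. In CPM, EAP replicates 1, 2 and 3 had 1013, 1049 and 1023 for B2m, and normal replicates 1, 2 and 3 had 1143, 909.5 and 1264. The EAP libraries lay close together, between the lowest and the highest normal library. EAP averaged 1028 ± 18.4 CPM and normal 1106 ± 180.2 CPM (SD, n = 3 per group). The group difference of B2m on the log2 scale was -0.10 (SE 0.14, edgeR adjusted p = 0.816), and its 95% interval ran from -0.43 to 0.22. It was 0.01 without normal replicate 3 and -0.23 without normal replicate 2. Normal replicate 3 was thus highest for B2m and lowest for Cd74 and RT1-Da.

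C3 (ENSRNOG00000046834) was the gene of the 8 whose groups did not overlap. EAP replicates 1, 2 and 3 held 25, 19 and 22 counts, which are 1.96, 1.41 and 1.63 CPM. The normal replicates held 12, 10 and 13 counts, which are 0.938, 0.738 and 0.887 CPM. The lowest EAP library lay above the highest normal library, as it did for 8.39% of all genes tested. In either direction, 1 of the 7 genes tested did not overlap, against 16.8% of all genes tested, so this does not set the 7 apart. EAP averaged 1.67 ± 0.276 CPM and normal 0.854 ± 0.104 CPM (SD, n = 3 per group). The exact two-sided permutation p was 0.1, which is as low as this design can go. C3 had a log2 fold change of 0.95 (SE 0.39, a fold of 1.94), with an unadjusted edgeR p of 0.0345 and an adjusted p of 0.426. In the 16 alternatives it ran from 0.73, without EAP replicate 1 and normal replicate 2, to 1.06, without EAP replicate 2, and the adjusted p ran from 0.396 to 0.68. The unadjusted p of C3 was under 0.05 in 7 of these alternatives and at or over it in 9, among them 5 of the 6 fits with 1 library left out, with a range from 0.0256 to 0.193. C3 did not share the high level in EAP replicate 2, which was the lowest EAP library for it. With 66 counts in all EAP and 35 in all normal libraries, the Poisson intervals of single libraries overlap: EAP replicate 2 spans 0.847 to 2.198 CPM and normal replicate 1 spans 0.485 to 1.64 CPM.

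**Figure D5:**
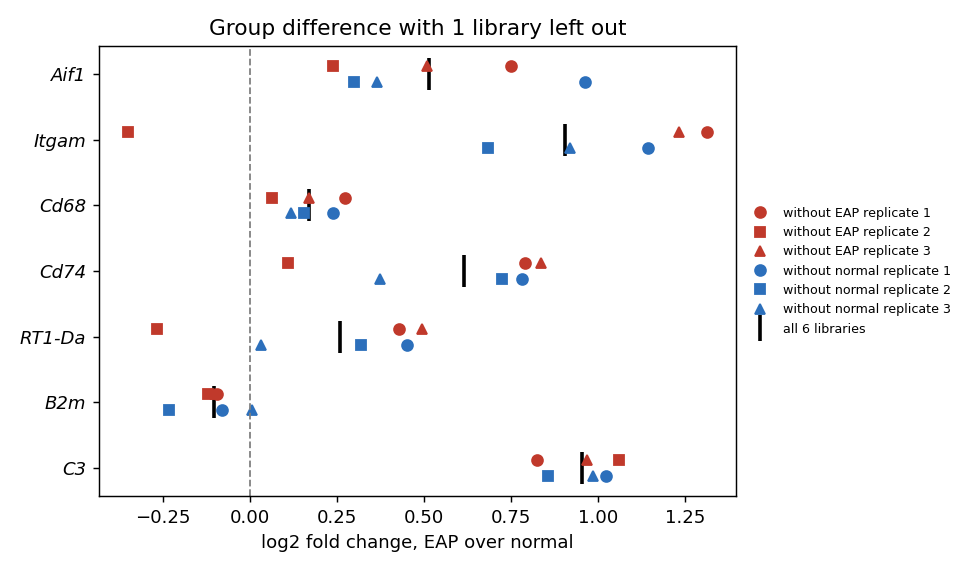
The x axis gives the edgeR log2 fold change, EAP over normal, and the y axis the 7 genes tested. The black tick is the value with all 6 libraries, and each symbol is the value with 1 library left out. Itgam and RT1-Da cross 0 without EAP replicate 2, B2m crosses it without normal replicate 3, and C3 stays between 0.83 and 1.06.

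Il1b (ENSRNOG00000004649) was near the detection limit in most libraries and high in one. Of Il1b, EAP replicates 1, 2 and 3 held 134, 3 and 7 counts, which are 10.5, 0.222 and 0.519 CPM. The normal replicates held 0, 26 and 4 counts, which are 0, 1.92 and 0.273 CPM. EAP replicate 1 lay 5.46-fold above the next library, normal replicate 2, and the groups overlapped. The count of 0 in normal replicate 1 was given a one-sided limit of 3 counts, or 0.234 CPM. By the two-sided 95% intervals used for single libraries, its upper bound was 0.288 CPM. The Poisson interval of EAP replicate 1 (8.78 to 12.4 CPM) lay above that of normal replicate 2 (1.25 to 2.81 CPM), which lay above those of the other 4 libraries (the highest upper bound 1.07 CPM). The 2 libraries with most Il1b are also the 2 that lie closest to the other group on the first principal component. With no filter on low counts, the log2 fold change of Il1b was 2.34 (SE 1.98, edgeR adjusted p = 0.751). Il1b passed the filter in no fit without EAP replicate 1, so its direction without that library was not tested. The libraries with high Il1b were not those with high microglia markers. EAP replicate 1 had the lowest Itgam level, and EAP replicate 2, highest for Itgam and Aif1, had 3 counts of Il1b.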

How the data were processed

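Brain RNA of 3 EAP and 3 normal libraries was analysed from 1 table of read counts by Ensembl gene, whole numbers that the authors deposited without normalization, per the file headers. Per the submitters' processing notes, the tools were featureCounts 2.0.3, HISAT2 2.2.1, DESeq2 1.36.0 and Trimmomatic 0.39, on build Rnor_6.0. For settings, annotation release and strand, nothing is given in the sources used here. All 6 count columns matched a library by name. The 8 genes and lists were chosen with earlier results of these data known. The identifiers and symbols of the 8 genes were taken as paired in the definition of the gene group. The RefSeq table (GRCr8, 47357 entries, 0 with an Ensembl identifier) pairs no others, so the marker lists were not applied.

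Counts were tested with the edgeR 4.0.16 quasi-likelihood test (R 4.3.3): 1 term for group, TMM factors, dispersions estimated robustly, the tool's filter by group (13155 of 22250 genes kept), two-sided, Benjamini-Hochberg adjustment over all genes tested. Named were all 8 genes, whatever their p. Intervals of log2 fold changes are 95%. Poisson and binomial intervals and the floor of 3 counts cover counting error only. Alternatives were 3 other scalings, 2 filters, DESeq2 1.42.0 (threshold 0.05 for its independent filtering), limma 3.58.1 voom, non-robust dispersions, a replicate block and leaving out libraries. The fits were also run on counts simulated with known fold changes and edgeR dispersions, without an outlying library. Their outcome is not given here and no result rests on it. No pair of libraries agreed within counting noise (chi-square per degree of freedom 20.9 or more).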

Additional observations from a re-analysis of the deposited data

How the results depend on the processing

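No gene of the 8 passed an adjusted p of 0.05 in any of the 16 alternatives; the lowest adjusted p was 0.396. Of 116 values of single genes under these alternatives, 113 kept their direction. The 3 that turned were Itgam (-0.35, range over single libraries left out -0.35 to 1.31) and RT1-Da (-0.27, range over all alternatives -0.27 to 0.50) without EAP replicate 2, and B2m (0.0067, range -0.23 to 0.0067) without normal replicate 3. Il1b was tested only where the filter let it pass, with log2 fold changes of 1.77 to 2.89. Its 4 values are counted among the 113. Each comes from a fit that kept EAP replicate 1, which held 134 of the 144 EAP counts of Il1b. These values therefore could not show the direction of Il1b without that library. The difference in the log2 ratio of Cd74 to RT1-Da, examined after seeing the data, was 0.35 to 0.42 with 1 library left out. Every EAP ratio lay above every normal ratio, so leaving out 1 library could not reverse it. These values therefore add no support.

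Over all genes, edgeR called 4. The count was 0 with upper-quartile factors and with non-robust dispersions (1536 and 1512 genes at an unadjusted p under 0.05), 1 with limma voom and with scaling by total count, 7 with no filter and 172 with DESeq2. It was 0 to 47 with 1 library left out and 333 without EAP replicate 1 and normal replicate 2. Those 2 libraries were picked for lying nearest the other group, so the 333 is not independent of the choice. The cause of the differences in count was not tested. With the replicate block the count was 80. The replicate numbers share no stated origin, and deviations of same-numbered libraries correlated at 0.0515 to 0.0718, under the 0.1 taken to mark pairs, with all 6 libraries closest to their own number, a hint only. Under the block Cd74 had a log2 fold change of 0.56 (edgeR adjusted p = 0.44). C3, Itgam, Aif1 and Il1b rest on few counts, so a gene outside the calls is not shown to be unchanged.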
